A study of Mus musculus with 2 samples.

Results

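Among CD45.2+CD11b+ cells sorted from mouse spleen, 1340 of 13258 cells were B cells that held at least 2 UMIs of Sox5 and Cacna1e together, and these are called Sox5/Cacna1e B cells here. A UMI is a unique molecular identifier, which marks 1 captured RNA molecule. A cell was a barcode with at least 500 UMIs, at least 200 genes and at most 10% of UMIs from mitochondrial genes. A B cell had at least 3 UMIs of Cd79a, Cd79b and Ms4a1 together, no UMI of Cd3d, Cd3e, Cd3g or Ncr1, and less than 1% of its UMIs from S100a8 and S100a9. Sox5/Cacna1e B cells numbered 989 in the library labelled Low B12 and 351 in the library labelled High B12, and no barcode among them occurred in both libraries. The other 1000 B cells, 737 and 263, held at most 1 UMI of these genes and served as the comparison.

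The study set a low vitamin B12 treatment against a high one by single-cell 3′ RNA sequencing, with 1 library per treatment. Spleen suspensions had been frozen alive and were sorted on CD45.2, 1 of the allelic variants of the leukocyte surface protein CD45, and on CD11b, the integrin subunit encoded by Itgam. The series title sets the work in Tet2-deficient blood formation, but the labels give no genotype, strain, age, B12 dose, duration or number of mice for either library. With 1 library per treatment no test between treatments was possible, and intervals, all at 95%, cover counting error only. In the order low-B12 and high-B12, which holds throughout, the libraries held 48884220 and 46994991 UMIs and gave 6510 and 6748 cells, of which 4 shared a barcode.

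SOX5 is a SoxD transcription factor with an HMG-box DNA-binding domain and no transactivation domain of its own, best known from cartilage and neural development. CACNA1E is the pore-forming subunit of the R-type voltage-gated calcium channel, a channel type of neurons and endocrine cells. Most spleen B cells are follicular cells, which carry IgD, CD23 (Fcer2a) and CD21 (Cr2) and lack CD11b. CD11b is carried by some B-1 cells, though not all, and by age-associated B cells. B-1 cells are innate-like cells that secrete natural IgM and depend on the transcription factor BHLHE41. Age-associated B cells express T-bet (Tbx21) and CD11c (Itgax).

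Since the cells were chosen by a SoxD factor and were compared below for BHLHE41-dependent B-1 genes, the bases just upstream of the genes that rose in them were searched for AACAAT, the core letters of SOX sites, on both strands, and for the E-box CACGTG, which reads the same on both strands and which BHLHE41 binds. The windows were the 250 bases upstream of RefSeq gene starts (GRCm38.p6). AACAAT stood in 9.42% of all 32851 windows, in 6.33% of the 8534 tested genes with a window, and in 1 of the 11 genes with a window among the 12 named below as higher, Dnm3. CACGTG stood in 6.02% of windows, in 10.2% of the tested genes, in 1 of the 8 B-1 genes with a window that rose, Bhlhe41 itself, and in 1 of the 9 genes named as lower, Gadd45g. AACAAT stood in 0 of the 8 B-1 genes and 0 of the 9 genes named as lower, and CACGTG in 0 of the 11 genes named as higher. With at most 1 gene in each set, these counts are too small to set apart from the shares over the tested genes. The sequence of Dnm3 is chr1:162478035-162478284 on the minus strand. That of Bhlhe41 is chr6:145865559-145865670 on the minus strand, cut back to the 112 bases that precede every annotated transcript of the gene in GENCODE M21. Capitals mark the match in each.
Dnm3: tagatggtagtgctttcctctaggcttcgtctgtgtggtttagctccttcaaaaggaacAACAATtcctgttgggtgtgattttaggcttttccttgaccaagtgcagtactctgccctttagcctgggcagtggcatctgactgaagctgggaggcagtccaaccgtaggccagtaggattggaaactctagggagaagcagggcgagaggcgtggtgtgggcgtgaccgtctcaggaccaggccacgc
Bhlhe41: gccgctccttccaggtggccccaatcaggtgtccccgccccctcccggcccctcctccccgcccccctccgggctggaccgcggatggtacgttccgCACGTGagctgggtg
A match describes these letters only, and binding was not measured.

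The share of B cells that were Sox5/Cacna1e B cells differed between the libraries by less than its counting error, at 57.3% (989 of 1726, exact binomial interval 54.9% to 59.6%) and 57.2% (351 of 614, 53.1% to 61.1%). B cells as a whole were 26.5% and 9.10% of cells, so Sox5/Cacna1e B cells made up 15.2% and 5.202% of all cells. The cells chosen by the 2 genes were also deeper, with a median of 6365 and 7054 UMIs against 5387 and 4991 in the other B cells. When every B cell was thinned to 2000 UMIs, 27.0% and 35.4% still held 2 UMIs of the 2 genes, with intervals of 24.9% to 29.1% and 31.6% to 39.4%. The cells just inside the limit, with exactly 2 UMIs, were 11.4% and 9.12% of B cells, and those just outside, with exactly 1, were 14.7% and 11.7%. At the other end 15.5% and 23.9% of B cells held 8 or more, and the highest cell held 72 and 66. In other gates of the same suspensions, 6.53% and 5.18% of NK-gated cells, 0 of 81 and 1 of 98 T-gated cells, and 0 of 568 and 6 of 1939 neutrophil-gated cells reached 2 UMIs, at median depths from 3407 to 6823.5 UMIs. Single NK-gated cells held up to 12 and 11 Sox5 UMIs, and how much of the NK share is free RNA was not tested. The 3308 and 3286 cells outside all of these gates also held the 2 genes, with up to 35 and 46 UMIs in a cell. Of all cells with 2 or more UMIs, Sox5/Cacna1e B cells were 82.1% (989 of 1205) and 69.5% (351 of 505).

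**Figure D1:**
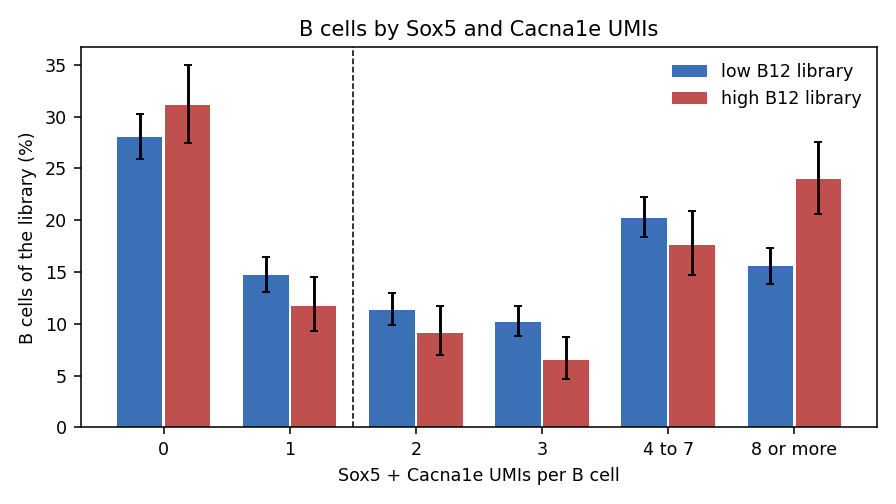
Share of each library's B cells (y axis, percent) by the number of Sox5 and Cacna1e UMIs per cell (x axis); blue is the low-B12 and red the high-B12 library, error bars are exact binomial 95% intervals and the dashed line is the limit of 2 UMIs. Cells with 0 UMIs were 28.0% and 31.1% of B cells, and the high-B12 library had more cells with 8 or more, 23.9% against 15.5%.

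Sox5 accounted for most of the selection. Sox5 stood at 753 and 1060.4 CPM (UMIs of the gene per 1000000 summed UMIs of its class) in the chosen cells and at 46.4 and 37.6 CPM in the other B cells, and Cacna1e stood at 124 and 317 CPM against 8.97 and 11.6 CPM. These values follow from the rule. Cells with Sox5 UMIs alone were 67.4% of the chosen cells in the low-B12 library and 43.0% in the high-B12 library. Cells with UMIs of both genes were 26.6% (263 cells) and 51.9% (182 cells), with intervals of 23.9% to 29.5% and 46.5% to 57.2%. These intervals cover counting error over cells only and do not test the libraries against each other. The chosen cells also differed in depth, with medians of 6365 and 7054 UMIs, and the part of depth in this split was not tested. Cells with Cacna1e UMIs alone were few, 59 and 18. The antisense genes Sox5os4 and Sox5os2 lie in the Sox5 locus, so their counts cannot be read apart from those of Sox5.

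The B cell label was checked on genes outside the gate. Pax5, the factor that fixes B cell identity, stood at 609.8 and 462 CPM with a UMI in 94.8% and 90.9% of Sox5/Cacna1e B cells, and Ebf1, which acts with it, stood at 1922 and 2054 CPM. In the NK, T and neutrophil gates Pax5 was at most 1.05 CPM. Those gates admitted only cells without a UMI of Cd79a, Cd79b or Ms4a1, so a low Pax5 level there was set in part by the rule. Summed over 10 T cell markers the level was 14.5 and 8.62 CPM, against 13.8 and 26.7 CPM in the other B cells, with 5 and 6 markers at 0, Cd3d, Cd3e and Cd3g among them by the rule. Summed over 9 NK cell markers it was 38.5 and 20.8 CPM against 39.6 and 78.6 CPM, with Ncr1 at 0 by the rule. The 9 neutrophil markers, of which the gate caps S100a8 and S100a9, summed to 339 and 558 CPM, against 28498 and 79625 CPM in empty droplets, and to 336 and 734 CPM in the other B cells. The 8 monocyte markers summed to 1462 and 1599.7 CPM against 2221 and 1368 CPM, and 10 cells held 28.3% and 73.7% of the former. All 4 erythroid genes tested were called higher in the comparison below, but 10 cells held 98.0% of the group's erythroid UMIs in each library. Scrublet called 7.89% and 3.13% of Sox5/Cacna1e B cells as doublets, and they were kept.

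Sox5/Cacna1e B cells carried more RNA of B-1 genes and less of follicular genes than the other B cells of the same libraries. The UMIs of each class were summed per library and compared with edgeR's quasi-likelihood test with the library as a term, which leaves 1 residual degree of freedom. Of 10941 genes tested, 140 were higher (1.28%) and 88 lower (0.804%) at a Benjamini-Hochberg adjusted p under 0.05, and the median log2 difference over all genes was -0.0010. The 2 libraries stand for 2 treatments, so the spread here includes any treatment effect on the difference. The 140 include the selection genes Sox5 and Cacna1e and the antisense genes Sox5os4 and Sox5os2. Of the calls, 137 of 140 and 88 of 88 had the same sign in each library. The fit favours genes on which the libraries agree, so these counts describe the calls and are no separate support. The difference was larger in the high-B12 library for 111 and 78 of the calls. Without a term for the library 1 gene was called each way (Vpreb3 among the lower), and without doublet calls 50 and 34 were.

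**Figure D2:**
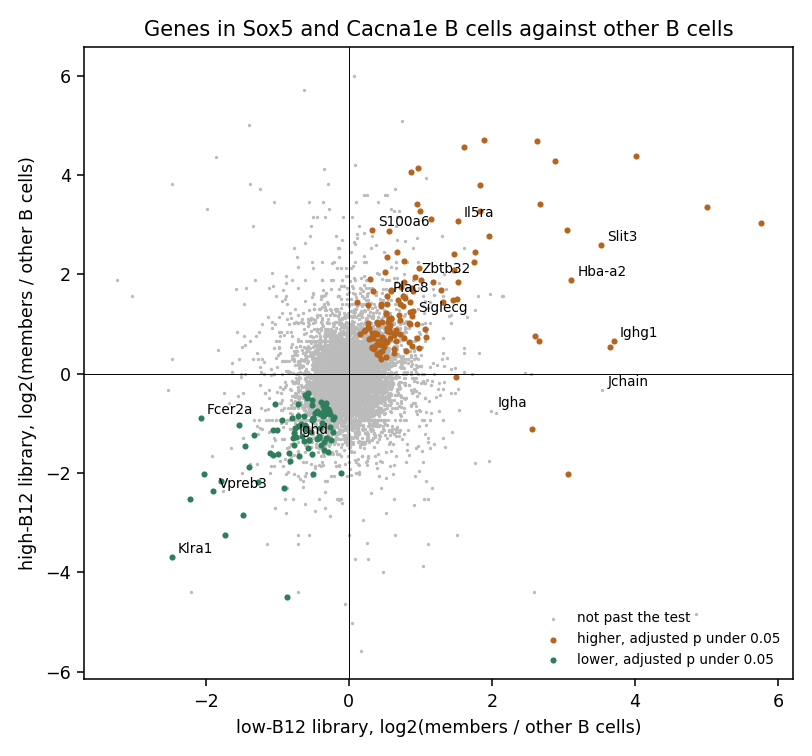
Each point is 1 of the genes tested, without the genes of the selection rule, by its log2 ratio of Sox5/Cacna1e B cells over other B cells in the low-B12 library (x axis) and in the high-B12 library (y axis). Brown points are higher and green points lower by edgeR, grey points were not called; Igha and Jchain sit right of 0 in the low-B12 and below 0 in the high-B12 library.

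Of the 13 B-1 genes listed, 12 could be tested and 9 were higher, while 3 were not called. The list's median log2 difference was 0.80. Its summed level was 1323 and 3404 CPM in Sox5/Cacna1e B cells against 1054 and 843 CPM in the other B cells. S100a6 alone made up 440.3 and 2508 CPM of the former and 351 and 335 CPM of the latter. Empty droplets held the list at 3692 and 3813 CPM, above the chosen cells. Zbtb32, a zinc-finger repressor of antigen-experienced and B-1 cells, stood at 38.01 and 88.0 CPM in Sox5/Cacna1e B cells and at 19.9 and 22.6 CPM in the other B cells. Both libraries showed it higher, by a log2 difference of 1.36 (SE 0.19, edgeR adjusted p = 4.5e-05). After thinning to 2000 UMIs, 8.81% and 12.3% of the chosen cells and 4.85% and 3.20% of the other cells held a Zbtb32 UMI. Il5ra, the receptor through which IL-5 sustains B-1 cells, stood at 15.3 and 65.8 CPM against 5.25 and 7.52 CPM, a log2 difference of 2.27 (SE 0.28, adjusted p = 5.3e-06 by edgeR). Ctla4, an inhibitory receptor that B-1 cells also express, stood at 12.9 and 27.7 CPM against 3.72 and 4.79 CPM (log2 2.09). T-gated cells held Ctla4 at 224 and 34.8 CPM, and their part in this level was not tested.

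Bhlhe41 differed less. It stood at 154 and 125 CPM in Sox5/Cacna1e B cells against 118 and 84.1 CPM, a log2 difference of 0.48 (SE 0.11, edgeR adjusted p = 0.019). At 2000 UMIs per cell 25.4% and 22.1% of the chosen cells held a Bhlhe41 UMI, against 19.0% and 13.6% of the other B cells, so it was common in both. Its call was lost when the comparison cells were matched on depth (log2 0.41, edgeR adjusted p = 0.13). Ptpn22, a phosphatase that dampens antigen receptor signals, stood at 294 and 239 CPM against 196 and 110.1 CPM (log2 0.83). The tetraspanin Cd9 stood at 64.0 and 57.9 CPM against 44.8 and 24.6 CPM (log2 0.76), and Plscr1, a phospholipid scramblase, at 47.2 and 55.3 CPM against 37.2 and 17.1 CPM (log2 0.78).

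S100a6, a calcium-binding protein, had a larger ratio in the high-B12 library. Its level was 440.3 CPM in the low-B12 cells and 2508 CPM in the high-B12 cells, while the other B cells stood at 351 and 335 CPM. The ratio was 1.253 (1.18 to 1.33) in the low-B12 library and 7.49 (6.83 to 8.22) in the high-B12 library, and the fitted log2 difference was 1.61 (SE 0.30, edgeR adjusted p = 0.0017). Empty droplets held S100a6 at 3071 and 3135 CPM, and the share of chosen cells with a UMI at 2000 UMIs per cell was 18.3% and 53.3% against 13.7% and 16.4% of the other B cells. The galectin gene Lgals1 had the same form at lower levels, 17.2 and 62.5 CPM against 14.0 and 16.4 CPM (log2 1.01), with ratios of 1.23 (0.90 to 1.69) and 3.81 (2.48 to 6.11).

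RNA of the surface markers that define B-1 cells by cytometry was not called higher. Surface protein was not measured here, and all cells compared had been sorted on CD11b, the product of Itgam. Cd5 was nearly absent, with 7 and 1 UMIs over all Sox5/Cacna1e B cells, and was too low to test. Spn, which encodes CD43, stood at 93.6 and 42.0 CPM against 88.8 and 81.4 CPM (log2 -0.26, edgeR adjusted p = 0.73), near equality in the low-B12 library and below the other B cells in the high-B12 library. Itgam stood at 111 and 94.1 CPM against 151 and 119 CPM, a log2 difference of -0.38 that did not pass (edgeR adjusted p = 0.094). Arid3a, a factor of B-1 and marginal zone cells, stood at 34.5 and 37.7 CPM against 23.8 and 20.5 CPM (adjusted p = 0.058).

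**Figure D3:**
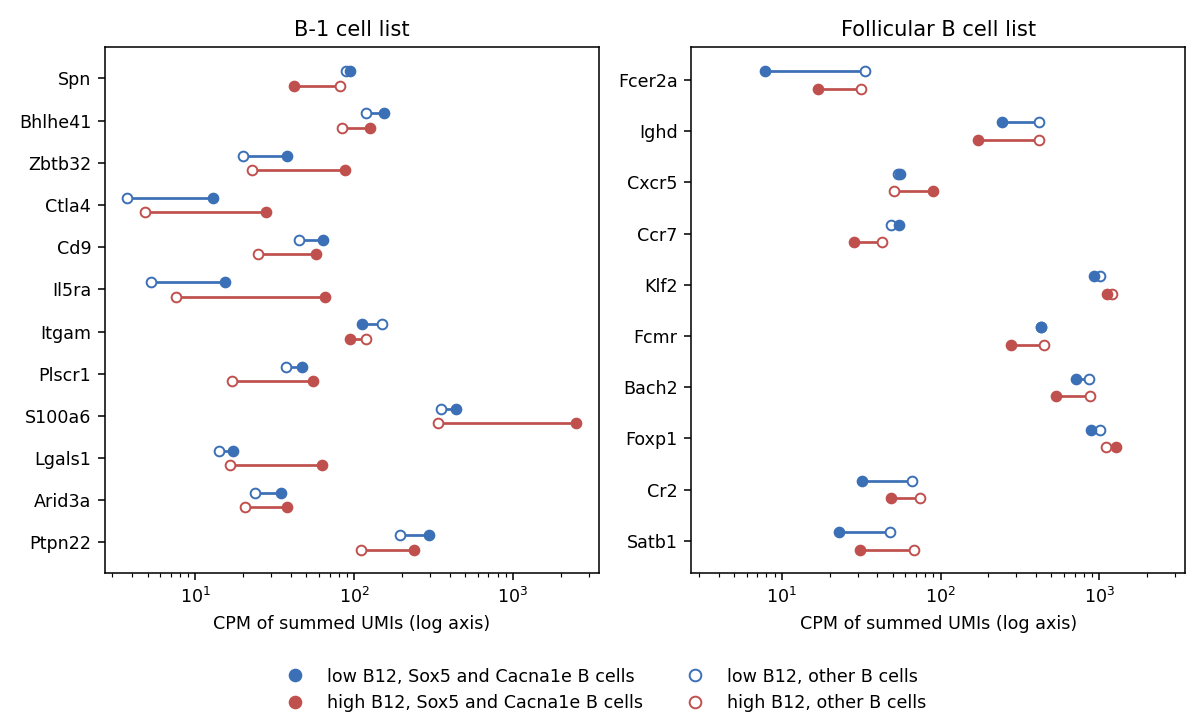
Levels in CPM (x axis, log scale) of 12 B-1 genes (left) and 10 follicular genes (right); filled points are Sox5/Cacna1e B cells and open points other B cells, blue is the low-B12 and red the high-B12 library, and lines join the classes of a library. Il5ra, Zbtb32 and Ctla4 lie further right in the filled points of both libraries, and Ighd and Fcer2a further left.

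Of 11 follicular genes 6 were lower and 5 were not called, with a list median of -0.47. Ighd, the IgD heavy chain, stood at 244 and 171 CPM in Sox5/Cacna1e B cells against 419 and 419.8 CPM (log2 -0.99, SE 0.12, edgeR adjusted p = 3.7e-06). At 2000 UMIs per cell 33.9% and 26.7% of them held an Ighd UMI, against 48.8% and 50.4% of the other B cells. Fcer2a stood at 7.87 and 16.9 CPM against 33.2 and 31.5 CPM (log2 -1.57), and 10 of the chosen cells held 47.5% and 68.1% of its UMIs. Cr2, Satb1 and Bach2, the last a repressor of plasma cell differentiation, were lower by log2 differences of -0.84, -1.07 and -0.47. Ccr7, Cxcr5, Klf2, Fcmr and Foxp1 were not called.

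Of 11 immunoglobulin constant-region genes tested 4 were higher and 2 lower, and the heavy-chain genes separated IgM from IgD. Ighm stood at 4556 and 3604 CPM in Sox5/Cacna1e B cells against 2896 and 2274 CPM (log2 0.69, SE 0.11, edgeR adjusted p = 0.00026). Chosen cells of 10 or more Jchain UMIs, 10 and 6 of them, held 25.4% and 6.42% of the group's Ighm UMIs. Ighd was lower as given above. Among cells with at least 3 heavy-chain UMIs, Ighm or Ighd led in 97.4% (959 of 985) and 94.5% (329 of 348) of them, Igha in 4 and 5 cells and an Ighg gene in 22 and 14 cells. In the other B cells Ighm or Ighd led in 95.9% and 91.5%. Ighg3 was called higher (284 and 72.6 CPM against 46.8 and 42.4 CPM, log2 2.05), but 10 cells held 78.4% of its low-B12 UMIs, and it fell to a log2 difference of 0.90 without cells of 10 or more Jchain UMIs (edgeR adjusted p = 4.6e-06). Ighg1, called higher, had 98.6% of its low-B12 UMIs in 10 cells and 1 UMI in the high-B12 library, and its log2 difference without the Jchain cells was 0.18 (edgeR adjusted p = 1.00). Ighg2b was lower (105 and 104 CPM against 113 and 416 CPM), with a log2 ratio of -0.11 in the low-B12 library and -2.0 in the high-B12 library.

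The secreted-antibody genes Jchain and Igha were held by a few cells. Jchain, which joins secreted IgM and IgA, had 10 or more UMIs in 10 low-B12 and 6 high-B12 Sox5/Cacna1e B cells. Those cells held 99.0% and 98.8% of the group's Jchain UMIs and 96.6% and 98.5% of its Igha UMIs, with up to 1026 and 810 Jchain UMIs in a cell. At 2000 UMIs per cell 2.33% and 3.15% of the chosen cells and 1.80% and 3.6% of the other B cells held a Jchain UMI. Of the plasma cell genes 1 of 13 tested was higher, Irf4, a factor with dose-dependent roles in activation and secretion, at 71.5 and 77.6 CPM against 51.6 and 52.0 CPM (log2 0.53, edgeR adjusted p = 0.028). Irf4 lost its call with depth-matched comparison cells (edgeR adjusted p = 0.56). Sdc1, which encodes CD138, had 17 and 7 UMIs in all, and Prdm1 stood at 8.53 and 8.62 CPM against 8.31 and 9.57 CPM.

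Mzb1 and Ly6d did not pass the test. Mzb1, a chaperone of antibody assembly that B-1 and marginal zone cells carry at high level, stood at 653 and 684 CPM against 518 and 717 CPM (log2 0.16, SE 0.12, edgeR adjusted p = 0.86). Ly6d, a GPI-anchored protein that marks the B lineage from its earliest step, stood at 829.6 and 1347 CPM against 838 and 1322 CPM (log2 0.03, SE 0.11, edgeR adjusted p = 1.00). It had a UMI in 83.3% and 90.6% of the chosen cells.

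Among the other genes named as higher, Siglecg, an inhibitory lectin of the B cell receptor known to restrain B-1 cells, stood at 71.3 and 148 CPM against 38.5 and 65.6 CPM (log2 1.04, SE 0.13, edgeR adjusted p = 6.5e-06). At 2000 UMIs per cell 12.3% and 24.4% of the chosen cells held a Siglecg UMI, against 6.65% and 10.8% of the other B cells. Inpp4b, a phosphoinositide phosphatase, stood at 234 and 476 CPM against 145 and 169 CPM (log2 1.09), and Plac8, a cysteine-rich protein of leukocytes, at 781 and 1333 CPM against 539.9 and 449 CPM (log2 1.06). The neuropilin Nrp2, the kinase Cdk14, the dynamin Dnm3, Tmem154, the phosphatase gene Ptprj and the intermediate filament gene Vim were higher by log2 differences from 0.83 (Vim) to 1.05 (Nrp2). The stem-cell antigen Ly6a, of the Ly6 family, was higher too, at 479 and 608 CPM against 322 and 306 CPM (log2 0.80).

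Among genes lower in Sox5/Cacna1e B cells the largest named differences were those of Vpreb3 and Pcp4. Vpreb3, a protein of receptor assembly in early B cells, stood at 14.0 and 11.1 CPM against 52.5 and 58.1 CPM (log2 -2.05, SE 0.19, edgeR adjusted p = 1.9e-08). Pcp4, a calmodulin-binding peptide, stood at 21.7 and 25.5 CPM against 75.4 and 115 CPM (log2 -1.92). Pdzd2, a PDZ-domain protein, stood at 48.4 and 69.0 CPM against 104 and 209 CPM (log2 -1.30). Pdzd2 UMIs outnumbered those of Dnm3 and Nr3c2 together in 6.77% and 10.3% of chosen cells, against 15.5% and 32.3% of other B cells. The reverse held in 72.4% and 51.3% of chosen cells, against 48.2% and 25.1% of other B cells. The part of this mix in the differences between the classes was not tested. Gadd45g, the adaptor Lax1, Epb41, the chemokine receptor Ccr6 and Zfp318, which is needed for IgD, were lower by log2 differences from -1.10 (Gadd45g) to -0.90 (Zfp318). Il1b was called lower at 44.7 and 14.7 CPM against 63.0 and 60.2 CPM, but its difference was 0.05 without doublet calls.

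Most genes of the signalling, transcription factor and age-associated lists were not called. Over all genes tested 2.08% (228 of 10941) were called in either direction, a lower share than in these lists. Of 14 B cell receptor genes tested Siglecg was higher and Cd72 and Vav3 lower. Of 14 B cell transcription factors Tcf4 (log2 0.54) and Zbtb20 (log2 0.48) were higher and Bach2 lower. Of the calcium channel subunits Cacna1s, the skeletal muscle channel, was the other member called, at 31.7 and 38.1 CPM against 20.3 and 21.9 CPM (log2 0.72, edgeR adjusted p = 0.039). Of 10 age-associated genes Cd86, a co-stimulatory ligand, was higher (log2 0.51) and the chemokine receptor Cxcr3 lower (log2 -0.76). Tbx21 stood at 199.6 and 49.2 CPM against 222 and 113.5 CPM (log2 -0.50, edgeR adjusted p = 0.078).

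Sox5/Cacna1e B cells were not uniform. Cells with Sox5 UMIs alone and cells with UMIs of both genes differed in both libraries, and these values describe cells split by the selection genes and carry no test. Tbx21 stood at 248 and 115 CPM with Sox5 alone and at 127 and 11.7 CPM with both. Zeb2, a partner of T-bet in late differentiation, stood at 2604 and 2074 CPM with Sox5 alone against 1434 and 775 CPM with both. Itgax showed 85.0 and 68.6 CPM against 35.0 and 3.70 CPM in the same subsets. Of the 12 B-1 genes measured 6 were at a higher level with both genes than with Sox5 alone in each library (Arid3a, Ctla4, Il5ra, Ptpn22, S100a6 and Zbtb32), and 4 in neither (Spn, Bhlhe41, Itgam and Plscr1). Il5ra stood at 3.34 and 21.6 CPM with Sox5 alone and at 41.8 and 97.5 CPM with both. Zbtb32 stood at 30.7 and 50 CPM with Sox5 alone against 54.5 and 112 CPM with both. S100a6 stood at 331 and 893 CPM with Sox5 alone against 659 and 3724 CPM with both.

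Depth differed between these subsets, with medians of 6113 and 6138 UMIs for Sox5 alone and 7175 and 8202 for both genes. Dnm3, which was higher in the group as a whole, stood at 197 and 166 CPM with Sox5 alone and at 159.5 and 55.5 CPM with both, close to the other B cells of the high-B12 library (55.4 CPM). Slit3, a guidance ligand chosen here after its values were seen, stood at 67.6 and 46.1 CPM with Sox5 alone and at 29.1 and 2.47 CPM with both. When only cells with both genes were compared with the other B cells, edgeR called 60 genes higher and 44 lower, of which 55 and 37 were among the calls for the whole group. In that comparison Zeb2 passed as lower (log2 -0.84, edgeR adjusted p = 0.045) and Dnm3 did not pass (log2 0.46, edgeR adjusted p = 0.30).

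**Figure D4:**
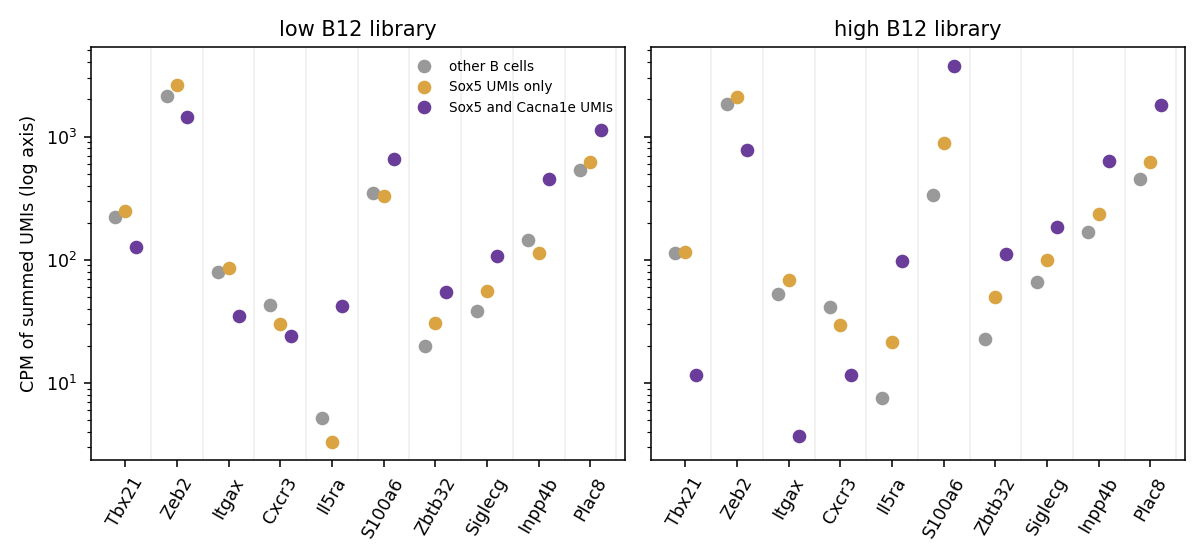
Levels in CPM (y axis, log scale) of 10 genes in the low-B12 (left) and high-B12 library (right); grey points are other B cells, yellow points Sox5/Cacna1e B cells with Sox5 UMIs only and purple points those with UMIs of both genes. Tbx21, Zeb2 and Itgax are lowest and Il5ra, S100a6 and Zbtb32 highest in the purple points of both libraries.

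The levels by number of selection UMIs are a description, since these UMIs chose the cells. In B cells with 0, 1, 2, 3, 4 to 7 and 8 or more UMIs, Ighd in the low-B12 library stood at 480.5, 304, 290, 282, 262 and 179.5 CPM. In the high-B12 library the levels were 445, 347, 261, 297, 189 and 111 CPM. Siglecg stood at 37.3 CPM with 0 UMIs and 93.8 CPM with 8 or more in the low-B12 library, and at 52.6 and 193.5 CPM in the high-B12 library. Tbx21 was 223 CPM with 0 and 189 CPM with 8 or more in the low-B12 library, and 119.9 and 18.1 CPM in the high-B12 library. Cells of 8 or more UMIs are also deeper, with medians of 7393 and 8286 UMIs.

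Between the libraries, Sox5/Cacna1e B cells of the high-B12 library held more RNA of S100a6, Crip1, Vim, Il5ra and Siglecg, and less of Cd72, Cd22, Fcgr2b, Tbx21 and Itgax. Of 9686 genes with at least 50 UMIs, 185 were higher (1.91%) and 637 lower (6.58%) in the high-B12 library, counted where the interval of the CPM ratio lay wholly beyond a log2 ratio of 0.32 in either direction. The median log2 ratio of all these genes was -0.14, and 6333 of them lay below a ratio of 1. Scaled to that median, 324 were higher and 369 lower, so the higher share of these genes went from 22.5% to 46.8%. All values here compare 1 library with 1 library, and neither treatment nor the makeup of the group can be told apart from the library. Fewer cells of a subset and less RNA per cell cannot be told apart in these sums either, and cells with UMIs of both selection genes were 26.6% and 51.9% of the group.

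S100a6 had the largest ratio among the 20 genes named by size, 5.70 (5.46 to 5.94), and in the other B cells its ratio was 0.95 (0.86 to 1.06). Crip1, a LIM-domain protein, went from 746 to 2299.6 CPM, a ratio of 3.08 (2.98 to 3.20), against 1.24 (1.16 to 1.32) in the other B cells. Vim went from 339 to 832 CPM (ratio 2.46), Tagln2 from 118 to 262 CPM (2.22), Inpp4b from 234 to 476 CPM (2.04), S100a10 from 472 to 939 CPM (1.99), Iglc1 from 745 to 1317 CPM (1.77), Emp3 from 229 to 396 CPM (1.73) and Plac8 from 781 to 1333 CPM (1.71). In the other B cells Vim, Tagln2, Inpp4b, S100a10, Iglc1, Emp3 and Plac8 had ratios from 0.83 (Plac8) to 1.61 (Iglc1). Whether the ratios of the classes differ was not tested for any gene. Igha had a ratio of 1.64 that rested on the cells with 10 or more Jchain UMIs, and it was below 1 without them (log2 -0.48).

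Lower in the high-B12 cells were the inhibitory receptors Cd72 (721 and 340 CPM, ratio 0.47), Cd22 (631 and 327 CPM, 0.52) and Fcgr2b (380.2 and 198 CPM, 0.52), the adaptor Pag1 (238 and 106 CPM, 0.44) and the transcription factor Irf8 (390.2 and 190.1 CPM, 0.49). In the other B cells the ratios were 0.91 (0.85 to 0.97) for Cd72, 0.77 (0.72 to 0.84) for Cd22 and 0.83 (0.75 to 0.92) for Fcgr2b. Pag1 at 0.70 (0.62 to 0.80), Tmem131 at 0.69 (0.59 to 0.80) and Ccnd3 at 0.66 (0.58 to 0.75) passed the fold as lower in the other B cells too. Tmem131, Adgre1 and Ccnd3 had ratios from 0.51 (Tmem131) to 0.53 (Ccnd3), and Ighg3, held by few cells, had 0.26. Of 14 receptor-signalling genes 13 lay below a ratio of 1 and 6 passed the fold as lower, and the list's median of -0.36 compares with -0.14 over all genes measured. Siglecg was the exception and was higher, 71.3 and 148 CPM with a ratio of 2.08 (1.82 to 2.37), and in the other B cells 1.71 (1.32 to 2.20).

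Of 10 age-associated genes 9 lay below 1 and 5 passed the fold as lower, with a median log2 ratio of -0.62. Tbx21 went from 199.6 to 49.2 CPM, a ratio of 0.25 (0.21 to 0.29), and in the other B cells from 222 to 113.5 CPM, a ratio of 0.51 (0.43 to 0.60). Itgax had a ratio of 0.41 (0.32 to 0.52), Zeb2 of 0.58 (0.56 to 0.60) and Fcrl5 of 0.62 (0.55 to 0.70). Of 12 B-1 genes 5 passed as higher (S100a6, Lgals1, Il5ra, Zbtb32 and Ctla4) and Spn passed as lower, with a ratio of 0.45 (0.37 to 0.55). Il5ra had a ratio of 4.29 (3.38 to 5.46) and Zbtb32 of 2.32 (1.94 to 2.76), whereas Bhlhe41 had 0.82 (0.72 to 0.92). In the other B cells Il5ra and Zbtb32 had ratios of 1.43 (0.63 to 3.04) and 1.13 (0.74 to 1.71).

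**Figure D5:**
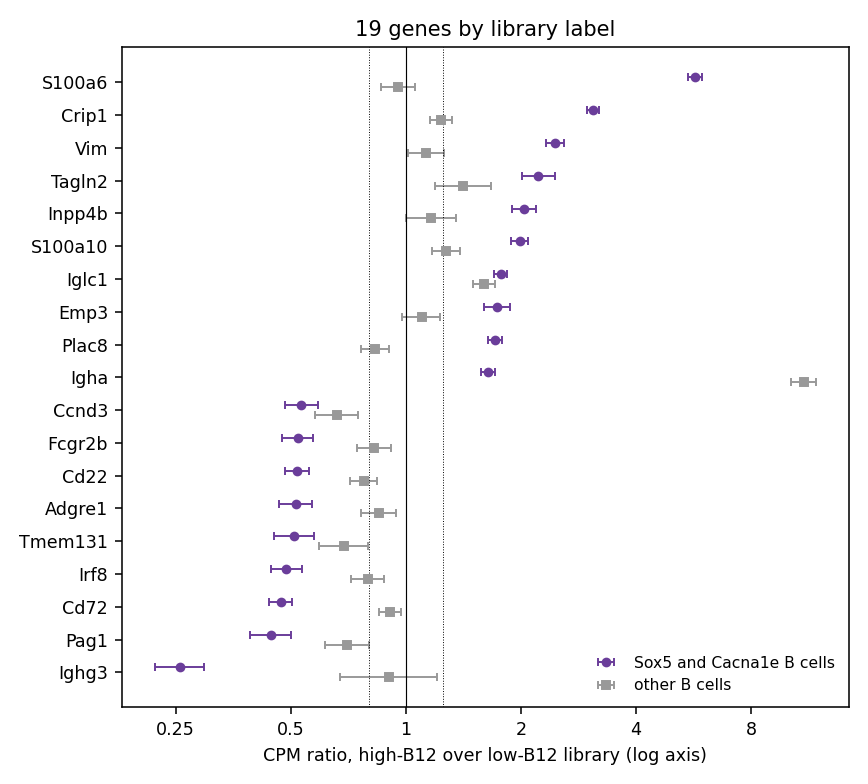
CPM ratio of the high-B12 over the low-B12 library (x axis, log scale) for 19 of the genes named by size; purple points are Sox5/Cacna1e B cells and grey squares other B cells, error bars are exact 95% counting intervals, and dotted lines mark a log2 ratio of 0.32 either way. S100a6, Crip1 and Vim lie between 2.46 and 5.70 in the purple points, and Cd72, Cd22 and Fcgr2b near 0.5.

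Free RNA differed between the libraries and its part in these ratios was not tested. Empty droplets held S100a8, a neutrophil transcript, at 11863 and 32735 CPM, and 30.0% and 74.1% of Sox5/Cacna1e B cells had a UMI of it. Among the other B cells 28.1% and 72.6% had one. The same droplets held Vim at 919 and 993 CPM and Cd72 at 321 and 101 CPM.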

How the data were processed

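Single-cell 3′ RNA of sorted mouse spleen cells was measured in 2 libraries. The authors deposited unfiltered matrices of counts, whole UMIs per gene and barcode with no normalization. They were made with Cell Ranger 4 per the file headers and with Cell Ranger 2.1.1 per the submitters' processing notes. The genome build of the counting is not given in the sources used here, so positions come from GENCODE M21 (GRCm38), matched by gene ID, and upstream sequences from RefSeq (GRCm38.p6), matched by symbol. Each file is 1 library, and 0 columns of other samples were set aside.

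UMIs were summed by library and class. Classes were compared with edgeR 4.0.16 in R 4.3.3 (filterByExpr, TMM scaling, class and library as terms, quasi-likelihood test, Benjamini-Hochberg over all genes tested). SE is the log2 difference divided by the root of F. Libraries were compared by exact conditional binomial intervals of CPM ratios, for genes with at least 50 UMIs, without p-values. Shares have exact Clopper-Pearson intervals at 95%. Log2 ratios within a library have 0.5 UMI added. Empty droplets held 10 to 100 UMIs. Doublets were called with Scrublet (scanpy 1.11.5). DESeq2 1.42.0 served as an alternative, and the scripts were tested on simulated data.

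Genes named by size were, between classes, up to 12 each way among calls with the same direction in both libraries and at least 50 CPM in either class of both libraries; between libraries, up to 10 each way among genes at 200 CPM or more past a log2 ratio of 0.32. Mitochondrial, ribosomal protein, haemoglobin, variable-segment, predicted and gate genes were left out. Genes of lists were named for their list, and a few genes that fall under these rules are not reported here. The cells and gene lists were chosen with earlier results of these data known. Cells are not replicates, and nothing in the labels says how many animals a library pools. The adjusted p-values rest only on how the difference between classes varied over these 2 libraries, with variance estimates shared across genes. They do not measure the spread between animals.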

Additional observations from a re-analysis of the deposited data

Results flagged for a closer look

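Igha and Jchain lay on opposite sides of equality in the libraries when Sox5/Cacna1e B cells were compared with the other B cells. The ratio of Igha was 3.98 in the low-B12 library, from 790.0 against 198 CPM, and 0.596 in the high-B12 library, from 1299 against 2178 CPM. The ratio of Jchain was 11.6 in the low-B12 library, from 646 against 55.5 CPM, and 0.795 in the high-B12 library, from 729 against 916 CPM. The difference between the libraries was not tested. In the Sox5/Cacna1e B cells 10 cells held 98.2% and 99.4% of the Igha UMIs and 99.0% and 99.6% of the Jchain UMIs. Without the 10 and 6 cells of 10 or more Jchain UMIs the group stood at 27.4 and 19.5 CPM for Igha and at 6.67 and 8.83 CPM for Jchain. The other B cells also had 4 and 4 such cells, which were left in their levels above. The group's levels without such cells therefore cannot be set against those of the other B cells.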

How the results depend on the processing

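Samples could not be paired between treatments, because the 2 libraries share only replicate number 1. The comparison of classes did take both classes from each library, with the library as a term. Leaving out a library left no residual degree of freedom, so each library's own ratio stands in its place. The share of Sox5/Cacna1e B cells among B cells was 72.0% and 68.9% at 1 UMI, 45.9% and 48.0% at 3 UMIs and 27.0% and 35.4% after thinning to 2000 UMIs, and moved by less than its interval with 1000 UMIs per cell, 5% mitochondrial UMIs or no doublets. Of 140 genes higher and 88 lower, the counts became 217 higher without a filter on low counts, 1 and 1 without the library term, 60 and 33 against B cells without a UMI of either gene, 140 lower against depth-matched cells, 50 and 34 without doublets, 60 and 44 in cells with both genes, and 16 and 11 by the DESeq2 Wald test, which gave no adjusted p for 1697 genes. Without doublets 50 and 27 of the calls were shared, and against depth-matched cells 86 and 57 were. The depth-matched comparison kept 430 and 70 cells. B-1 genes called higher numbered from 0 (no library term) to 10 (no filter, or no Jchain cells), with 4 without doublets and 2 by DESeq2. Leaving out Jchain cells and keeping cells with both genes were chosen after seeing the data.

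Genes that changed sign were near 0 or held by few cells, except Il1b, which was called lower (log2 -0.94, edgeR adjusted p = 0.0064). Prdm1 was 0.016 without the filter, 0.021 against B cells without a UMI and 0.031 in the low-B12 library. Igha was -0.17 without the library term, -0.039 depth-matched, -0.088 at 3 UMIs, -1.22 without Jchain cells and -0.75 in the high-B12 library. Xbp1 was -0.11 depth-matched, -0.078 at 3 UMIs, -0.26 without Jchain cells and -0.28 in the high-B12 library. Mzb1 was -0.084 depth-matched and -0.069 in the high-B12 library, and Jchain was -0.30 without Jchain cells and -0.33 in the high-B12 library. Ly6d was -0.015 and Spn 0.076 in the low-B12 library, and Il1b was 0.045 without doublets. Apart from the construction of each alternative, the cause was not tested.

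Between libraries the counts became 324 higher and 369 lower when scaled to the median gene, and 60 and 197 after thinning, where 6089 genes were measured. Igha in the high-B12 over the low-B12 library was -1.27 at 3 UMIs and -0.48 without Jchain cells. In percentage points, the excess of cells with a Bhlhe41 UMI was 0.709 in the low-B12 library at 1000 UMIs per cell and 12.4 and 18.9 unthinned. That of Zbtb32 was 4.75 in the high-B12 library at 1000 UMIs and 11.8 and 25.9 unthinned.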

Other observations

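Some of the largest differences between Sox5/Cacna1e B cells and the other B cells were in genes at low level, which are named here after their values were seen. Klra1, a receptor of the Ly49 family best known from NK cells, stood at 7.47 and 12.9 CPM against 41.8 and 168 CPM (log2 -3.03, edgeR adjusted p = 2.3e-11). Tenm4, a teneurin of cell adhesion, stood at 94.8 and 36.3 CPM against 38.9 and 10.9 CPM (log2 1.39, adjusted p = 2.2e-06 by edgeR). Nid1, a basement membrane protein, stood at 15.1 and 34.1 CPM against 4.37 and 6.84 CPM (log2 2.02). Slit3 had a log2 difference of 3.42, with 55.7% and 100% of its UMIs in 10 cells. Pdcd1lg2, which encodes the ligand PD-L2 found on B-1 cells of the body cavities, was not called between the classes. It stood at 9.73 and 46.0 CPM against 9.62 and 12.3 CPM, near equality in the low-B12 library. Its ratio between the libraries was 4.72 (3.52 to 6.39) in the chosen cells.

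Genes of vitamin B12 handling and the Tet genes were compared between the libraries within Sox5/Cacna1e B cells, where 6333 of all 9686 genes measured lay below a ratio of 1. Of 7 genes of this list 6 lay below 1, with a median log2 ratio of -0.44 beside -0.14 over all genes, and the list's median in the other B cells was -0.28. Tet3 was the gene of this list past the fold, at 78.7 and 43.1 CPM with a ratio of 0.55 (0.45 to 0.67). Tet2 stood at 92.3 and 62.5 CPM, a ratio of 0.68 (0.57 to 0.80) that did not lie past the fold. The 9 MHC class II genes measured also lay below 1, with a median log2 ratio of -0.20, close to that of all genes, and 2 of them passed the fold as lower.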
